A study of Homo sapiens with 6 samples.

Results

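The clustered histone genes were examined in KNS42 cells, a pediatric glioblastoma-derived cell line, after depletion of the RNA-binding protein Musashi1 (MSI1). Members were all protein-coding genes of the deposited expression table whose symbol begins with HIST1H, HIST2H, HIST3H or HIST4H. This gave 72 of the 58174 genes in the table, or of its 19799 protein-coding genes. Of the 72, 19 reached a mean level of at least 0.5 FPKM over the 6 libraries and are called detected here. FPKM is the number of fragments per kilobase of gene, scaled to the depth of the library. Levels of genes of different length can thus be set side by side, as far as the gene lengths of the table hold. The limit does not follow read numbers. HIST1H4K, of 312 bases in the table, was detected on 17 reads over all libraries, while HIST1H3E, of 2679 bases, was not on 103 reads.

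KNS42 cells were transfected with a control siRNA (siC, n = 3 libraries) or with a pool of siRNAs against MSI1 (siMSI1, n = 3 libraries), grown as adherent cells in medium with serum and harvested 72 h later. Polyadenylated RNA was enriched before strand-specific sequencing. All libraries stem from a single cell line, and the labels do not say whether the libraries of a group came from separate cultures, so that p-values measure the spread between these libraries, which may be technical. Libraries held 14448513 to 18024080 reads on genes in siC and 13087025 to 14700593 in siMSI1. MSI1 itself stood at 63.7, 61.9 and 66.9 in siC against 12.1, 12.3 and 11.2 FPKM in siMSI1, so that the siMSI1 libraries held 18.5% of the siC level. The stem and glial markers NES, VIM, SOX2 and CD44 were expressed in all libraries, whereas the oligodendrocyte marker MOG, the neuronal marker RBFOX3 and the glial marker S100B had no read. Of the other 5 markers of foreign cell types, the leukocyte, endothelial and epithelial genes PTPRC, PECAM1, EPCAM and KRT5 stayed under the detection limit and the neuronal vesicle gene SYP had means of 12.9 FPKM in siC and 8.93 FPKM in siMSI1. The astrocyte marker GFAP had means of 1.63 FPKM in siC and 4.61 FPKM in siMSI1, with no overlap between the groups.

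Replication-dependent histone genes encode the core histones H2A, H2B, H3 and H4, which form the nucleosome, and the linker histone H1, which binds the DNA between nucleosomes. They lie in clusters, mostly lack introns, and are transcribed when DNA is copied in S phase. Their mRNAs are the known exception among the mRNAs of animal cells in that they end in a conserved hairpin instead of a poly(A) tail. The hairpin is bound by SLBP, which guides 3′ end processing, translation and decay of these mRNAs. Some members are known to make a second, polyadenylated mRNA as well, in particular in cells that leave the cell cycle. Since the libraries were made from polyadenylated RNA, the values below describe polyadenylated histone RNA and other histone RNA carried through the enrichment, not the total histone mRNA of the cells.

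The hairpins are shown first, as they define the family at the 3′ end. Of the 72 members, 67 were matched to a gene of GENCODE release 44 on GRCh38, the build of the deposited table, and 61 of the 67 held the element within 150 bases after the stop codon. The element was searched as 16 bases starting with GG, with a perfectly paired stem of 6 base pairs and a loop of 4 bases starting with TT. The same search gave a match in 3 of 19243 other protein-coding genes, or 0.0156%. Of these, H2AFX had a stem found in the family, whereas CDC40 and DLEU7 had other stems. The following lines give the hairpins, in capitals, with 5 flanking bases on each side, 5′ to 3′ on the gene's strand, for both members that changed, for the most abundant H2A gene of the HIST1 cluster and for carriers of the rarer forms.
HIST1H2BK (chr6:27146361-27146386, minus strand): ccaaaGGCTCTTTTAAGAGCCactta
HIST1H1C (chr6:26055739-26055764, minus strand): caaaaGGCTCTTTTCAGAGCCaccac
HIST1H2AC (chr6:26124664-26124689, plus strand): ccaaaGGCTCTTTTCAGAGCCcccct
HIST2H2AC (chr1:149887386-149887411, plus strand): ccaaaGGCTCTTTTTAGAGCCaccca
HIST2H4B (chr1:149860764-149860789, minus strand): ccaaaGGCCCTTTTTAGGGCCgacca
All hairpins of the family were covered by 5 forms, which differed in 1 base pair of the stem and in the last base of the loop. The form of HIST1H1C and HIST1H2AC was the most frequent, with 36 members, of which 6 were detected. The form of HIST1H2BK was held by 10 members, of which 4 were detected, and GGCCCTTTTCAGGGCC by another 10, of which 1 was detected. The form of HIST2H4B occurred in 4 members, all of them detected H4 genes, and that of HIST2H2AC in 1. The hairpin started 22 to 62 bases after the stop codon, with a median of 35.

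The hairpin itself was held by detected and undetected members alike, in 16 of 17 and 45 of 50 of those with a gene model. What differed in number was the GENCODE model behind it. The model ran at least 50 bases past the hairpin in 7 of the 17 detected members (HIST3H2A, HIST1H2AC, HIST2H2BE, HIST1H2BJ, HIST1H2BD, HIST1H2BC and HIST1H3H), and in 4 of the 50 undetected members. In HIST1H2BK and HIST1H1C, the most abundant members, the GENCODE model stopped within 5 bases of the hairpin. The RefSeq record of HIST1H2BK, in contrast, spans 8566 bases from start to end. HIST1H3E, without a matched hairpin, was counted as not running past it, with up to 1908 bases after the stop codon. The deposited table used other gene lengths, such as 2250 bases for HIST1H2AG, which had at most 71 bases after the stop codon in GENCODE. By those lengths, 31.8% of members of at least 1000 bases and 24.0% of shorter ones were detected. These counts are a description of gene models and were not tested.

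Most members were near or below detection. The 19 detected members made up 26.4% of the family, compared with 57.4% (11365) of all protein-coding genes. Of all protein-coding genes under 1000 bases in the table, 104 of 1189, or 8.75%, were detected. Among members, 12 of the 50 under 1000 bases (24.0%) and 7 of the 22 of at least 1000 bases (31.8%) were detected. A further 34 members had reads but stayed below the limit, and 19 had no read in any library. For the latter, a floor of 3 reads in a library corresponds to 0.0643 to 0.771 FPKM, depending on gene and library. Such floors cover counting error only.

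**Figure D1:**
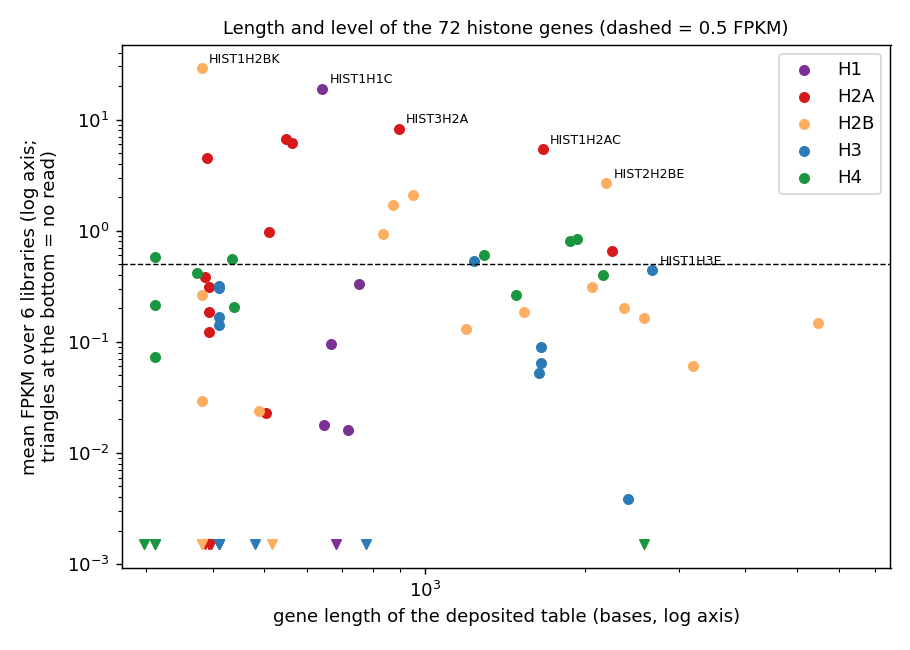
Mean level over the 6 libraries (FPKM, log axis) against the gene length in the deposited table (bases, log axis) for the 72 histone genes, coloured by class, with the limit of 0.5 FPKM as a dashed line and the 19 genes without a read as triangles at the bottom. HIST1H2BK and HIST1H1C stand above all others, and most of the genes without a read are shorter than 1000 bases.

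The classes differed in how many members were seen. H2A, which pairs with H2B in the nucleosome, had 7 of 17 members detected and 38.2% of the 6464 reads of the family. H2B had 5 of 18 members detected and 33.3% of the reads. Linker histone H1 had 1 of 6 detected, HIST1H1C, which took most of its 17.0% of the reads. H4 had 5 of 15 members detected with 8.06% of the reads, and H3 had 1 of 16 with 3.45%. By position, 12 of 56 members were detected in HIST1, 6 of 12 in HIST2, 1 of 3 in HIST3, and the single HIST4 gene had no read. Reads were concentrated on few genes: HIST1H1C and HIST1H2BK together took 31.5% of them and the leading 5 genes, with HIST1H2AC, HIST3H2A and HIST2H2BE, took 62.3%.

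The HIST1 cluster spans 2.17 Mb of chromosome 6 (chr6:25723397-27893891, 54 genes in GENCODE), and the plot of levels along it shows HIST1H1C and HIST1H2BK as isolated peaks, 332 and 1423 kb from the first gene. H2A and H2B genes often lie head to head with a shared promoter region, and 12 such pairs had less than 1000 bases between their gene models. Of these, 3 pairs were detected on both sides, 3 on a single side and 6 on neither. Another 3 pairs of gene models lay this way between an H3 and an H2B gene, none of them detected. Among these, the HIST1H3D and HIST1H3J models overlap HIST1H2AD and HIST1H2AM, whose pairs with HIST1H2BF and HIST1H2BO are already counted. HIST1H2BK, with 967 reads over all libraries, faced HIST1H2AH, 250 bases away, with 13 reads. HIST3H2A, with 658 reads, faced HIST3H2BB, 229 bases away, with 43 reads. By contrast, HIST2H2BE and HIST2H2AC, 235 bases apart, were both detected at 2.67 and 4.54 FPKM.

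**Figure D2:**
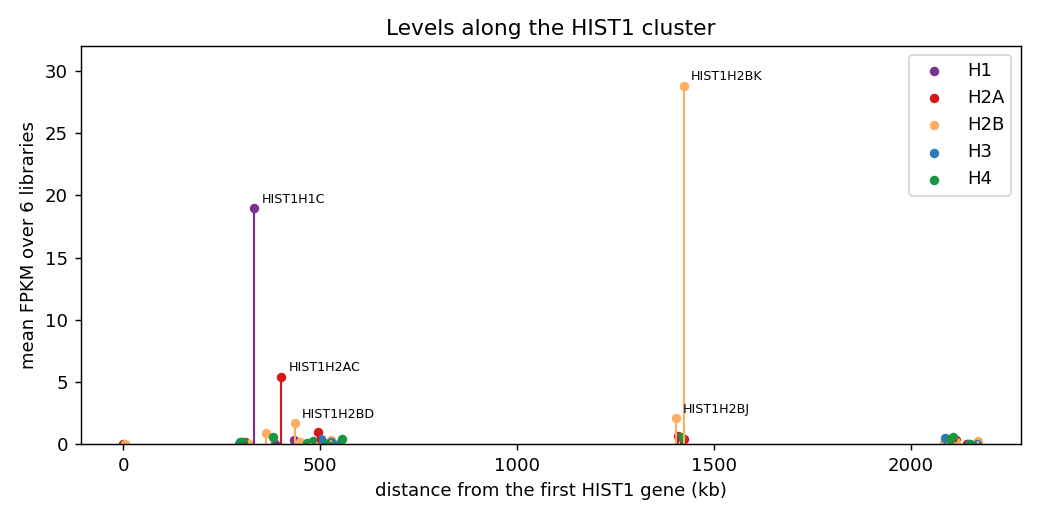
Mean level over the 6 libraries (FPKM) of the HIST1 genes against their distance from the first gene of the cluster (kb), coloured by class. HIST1H2BK at 28.8 FPKM and HIST1H1C at 19.0 FPKM rise above genes that lie mostly below 1 FPKM.

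MSI1 knockdown was followed by higher levels of HIST1H2BK and HIST1H1C, whereas no other member passed the test. HIST1H2BK encodes an H2B and HIST1H1C the linker histone H1.2, and both belong to the members known to make polyadenylated mRNA. Of the 19 members tested, 2 were called higher and 0 lower at an adjusted p of at most 0.01 (limma on log2 FPKM, Benjamini-Hochberg over 15069 genes). This is 10.5% of the members called higher, next to 5.15% of all tested genes called higher, 5.83% called lower and 11.0% called in either direction. At an unadjusted p under 0.05, 7 members were higher and 0 lower, where all tested genes gave 19.0% higher and 19.3% lower. A fit of limma voom on the reads behind the FPKM values also called 2 members higher and 0 lower. In bulk RNA, more cells that express a gene and more of its RNA per cell cannot be told apart. In polyadenylated RNA, a change in the total mRNA of a member and one in its polyadenylated part cannot be told apart either.

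HIST1H2BK was the most abundant member. It is a gene of 1 exon on the minus strand (chr6:27146361-27146855), and its length in the deposited table, 381 bases, equals its coding length, so that reads beyond the coding sequence did not enter its value. It stood at 18.6, 20.5 and 22.8 FPKM in siC (106, 141 and 125 reads) and at 37.2, 37.4 and 36.4 FPKM in siMSI1 (209, 187 and 199 reads). Every siMSI1 library lay above every siC library, with a mean of 37.0 ± 0.564 compared with 20.6 ± 2.12 FPKM (SD, n = 3 each). The log2 fold change was 0.85 (SE 0.083, 95% interval 0.65 to 1.04, adjusted p = 0.000603 in limma), or 1.80-fold. Of its coding sequence, 28.4% of the windows of 100 bases occur also in H2BFS, which had no read in any library, so that the share of reads that could come from that copy cannot be told apart by sequence there.

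HIST1H1C ranked next. This gene of 1 exon on the minus strand (chr6:26055740-26056470) shares no coding window of 100 bases with another histone gene, the only genes compared. Its level was 11.3, 13.3 and 15.6 FPKM in siC (109, 155 and 144 reads) and 22.8, 23.6 and 27.0 FPKM in siMSI1 (216, 199 and 249 reads). The groups did not overlap, and the siMSI1 mean of 24.5 ± 2.22 FPKM compared with 13.4 ± 2.13 FPKM in siC (SD, n = 3 each). The log2 fold change was 0.87 (SE 0.12, 95% interval 0.59 to 1.15, adjusted p = 0.00247 in limma). This call was lost, at an adjusted p of 0.0112, when genes of low level were kept in the fit and, at 0.0123, under moderation without trend and robust weights, while that of HIST1H2BK held under all 17 alternatives. Of the other H1 genes, HIST1H1E had 1 to 8 reads per library with a mean of 0.331 FPKM, and HIST1H1B had none.

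**Figure D3:**
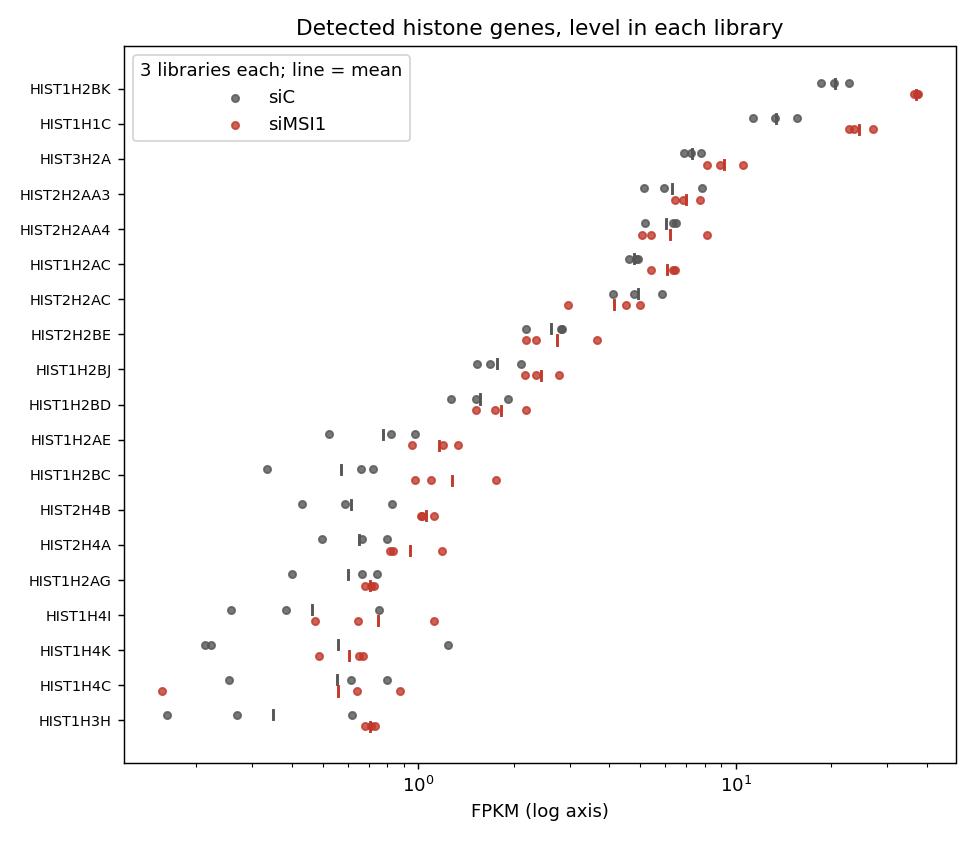
Level of each of the 19 detected histone genes in each library (FPKM, log axis), with siC in grey, siMSI1 in red, points for the 3 libraries of a group and a short line for the group mean. The groups separate widely for HIST1H2BK and HIST1H1C, and the spread between libraries grows toward the lower genes.

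The regions before the transcription start of both genes are shown because histone classes are known to carry different promoter elements. Sequences are from RefSeq (GRCh38.p14) and cover the 150 bases before the start, 5′ to 3′ on the gene's strand. Capitals mark ATTTGCAT, the octamer bound by POU2F1 and its relatives, the CCAAT box and the TATA element TATAAA, each searched on both strands, so that a CCAAT box on the other strand reads ATTGG.
HIST1H2BK (chr6:27146859-27147008, minus strand): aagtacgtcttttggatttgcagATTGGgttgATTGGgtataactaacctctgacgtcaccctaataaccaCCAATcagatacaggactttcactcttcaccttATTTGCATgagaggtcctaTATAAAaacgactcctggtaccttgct
HIST1H1C (chr6:26056471-26056620, minus strand): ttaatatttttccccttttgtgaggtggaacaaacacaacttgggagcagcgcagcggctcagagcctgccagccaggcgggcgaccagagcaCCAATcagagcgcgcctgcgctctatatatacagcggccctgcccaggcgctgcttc
In the 250 bases before the start, the octamer was found in 26 of 61 members with a RefSeq promoter and in 2.03% of all 27305 promoters of that length. It was held by 11 of 14 H2A and 14 of 18 H2B genes, by 1 of 10 H3 genes and by 0 of 6 H1 and 0 of 13 H4 genes. Head-to-head H2A and H2B genes share part of this window, so that a single octamer can be counted for both. CCAAT was found in 51 of 61 members, against 37.0% of all promoters, and TATAAA in 41 of 61, against 13.0%. Detected and undetected members held the octamer in 8 of 16 and 18 of 45 cases. By exact match, the members that changed thus carry different sets of these letters. Related forms were not searched, so that the tatatata of HIST1H1C, for example, stays in lower case. A match describes the sequence without showing that a factor binds.

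None of the 7 tested H2A genes passed the threshold, and the groups overlapped in 5 of them. HIST1H2AC stood at 4.84, 4.61 and 4.92 in siC against 6.35, 6.45 and 5.43 FPKM in siMSI1, without overlap, and rested on 118 to 156 reads per library. Its log2 fold change was 0.33 (95% interval 0.12 to 0.55), with an adjusted p of 0.0361 in limma. HIST3H2A, the H2A gene of the small HIST3 cluster on chromosome 1, stood at 6.86, 7.23 and 7.77 in siC against 8.94, 8.10 and 10.6 FPKM in siMSI1. The groups did not overlap either, with a log2 fold change of 0.33 and an adjusted p of 0.0632 in limma. Both log2 fold changes were smaller than those of the members that passed the test.

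HIST2H2AA3 and HIST2H2AA4 are near-identical copies, and how reads were divided between them is not given in the sources used here. HIST2H2AA3 stood at 5.96, 5.14 and 7.85 in siC against 6.43, 6.81 and 7.74 FPKM in siMSI1. HIST2H2AA4 stood at 6.51, 6.37 and 5.18 in siC against 5.05, 5.41 and 8.15 FPKM in siMSI1. In both, the groups overlapped and the log2 fold changes were 0.16 (95% interval -0.20 to 0.52) and 0.02 (95% interval -0.41 to 0.44). HIST2H2AC, at 4.79, 4.11 and 5.88 in siC against 2.96, 4.50 and 5.00 FPKM in siMSI1, had the lowest log2 fold change of the 19 tested members, -0.26 (95% interval -0.75 to 0.23), with overlapping groups. HIST1H2AE and HIST1H2AG reached at most 1.33 and 0.742 FPKM, and their groups overlapped.

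The H2B genes other than HIST1H2BK were expressed at lower levels. HIST2H2BE stood at 2.19, 2.85 and 2.82 in siC against 2.35, 2.19 and 3.65 FPKM in siMSI1, and HIST1H2BD at 1.92, 1.27 and 1.52 in siC against 2.18, 1.75 and 1.52 FPKM in siMSI1. Both are known to make polyadenylated mRNA, and in both the groups overlapped, with adjusted p-values of 0.930 and 0.485 in limma. Of the 5 members listed for a known polyadenylated mRNA (HIST1H2BK, HIST1H1C, HIST1H2AC, HIST2H2BE and HIST1H2BD), 2 were called higher, next to 5.15% of all tested genes. These were HIST1H2BK and HIST1H1C again, and the list was chosen with earlier results of these data known.

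HIST1H2BJ and HIST1H2BC lay higher in all siMSI1 libraries than in all siC libraries. HIST1H2BJ stood at 2.11, 1.69 and 1.54 in siC against 2.36, 2.17 and 2.79 FPKM in siMSI1 (adjusted p = 0.0790 in limma). HIST1H2BC had the highest log2 fold change of the tested members, 1.05 (95% interval 0.28 to 1.81, adjusted p = 0.0526 in limma), on 9, 10 and 4 reads in siC and 12, 12 and 21 reads in siMSI1. From start to end, its GENCODE gene model (chr6:26086317-26123926) overlaps HFE and HIST1H4C on the other strand and HIST1H1T on its own. Its length in the deposited table is 834 bases, and whether the counted bases overlap these genes was not checked. Whether reads were counted by strand is not given in the sources used here. HFE itself was at a log2 fold change of 0.00 in limma (adjusted p = 0.999).

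Little H3 RNA was seen. HIST1H3H was the only H3 gene over the limit, at 0.162, 0.268 and 0.618 in siC against 0.713, 0.678 and 0.732 FPKM in siMSI1, with 3 to 13 reads per library (log2 fold change 0.98, adjusted p = 0.141 in limma). It is among 2 members, together with HIST1H4I, whose siC mean was below 0.5 FPKM and which entered the test through the siMSI1 libraries. HIST1H3E lay just under the limit with a mean of 0.441 FPKM. It stood at 0.224, 0.268 and 0.311 in siC against 0.608, 0.712 and 0.520 FPKM in siMSI1, on 9, 13 and 12 compared with 24, 25 and 20 reads. Without the filter on low genes its log2 fold change was 0.95, with an adjusted p of 0.0574 in limma.

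Of the H4 genes, HIST2H4A and HIST2H4B have identical coding sequences and cannot be told apart by reads within them. HIST2H4B stood at 0.588, 0.430 and 0.829 in siC against 1.02, 1.03 and 1.12 FPKM in siMSI1. HIST2H4A stood at 0.498, 0.796 and 0.667 in siC against 0.832, 0.813 and 1.19 FPKM in siMSI1. All siMSI1 libraries lay above all siC libraries for both copies, with adjusted p-values of 0.0753 and 0.226 in limma. HIST1H4K, identical in coding sequence to the undetected HIST1H4J, rested on 1 to 7 reads per library, HIST1H4C on 1 to 5 and HIST1H4I on 5 to 19, and their groups overlapped. At the limit of detection, HIST1H4C (0.557 FPKM) and HIST1H3H (0.529 FPKM) were just inside and HIST1H3E (0.441 FPKM) and HIST1H4J (0.413 FPKM) just outside.

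**Figure D4:**
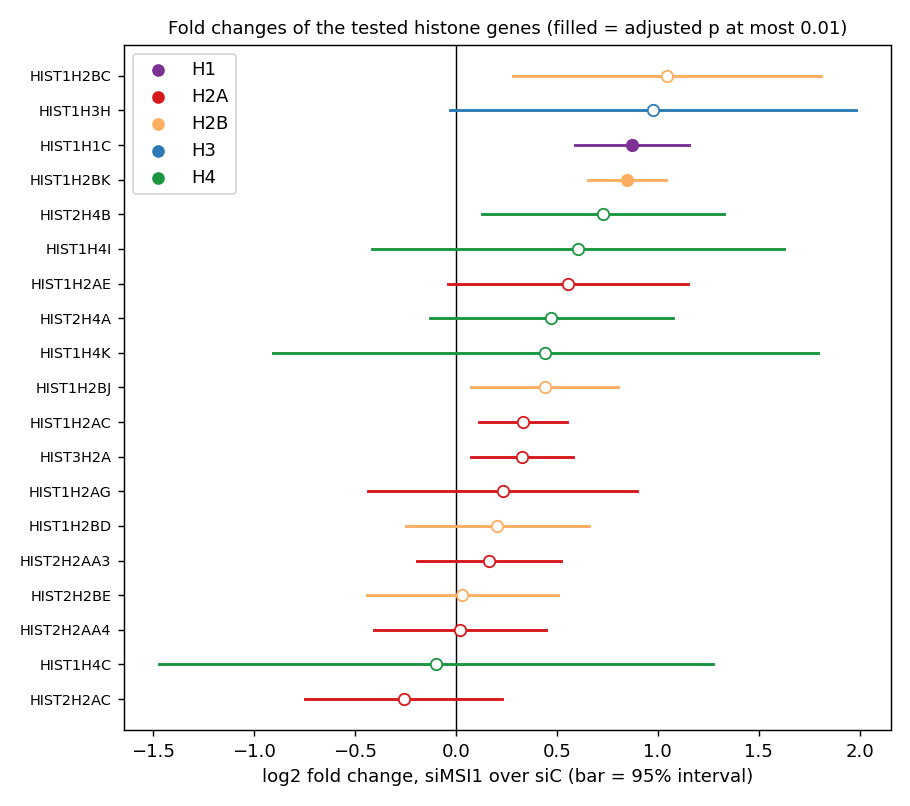
log2 fold change (siMSI1 over siC, limma on log2(FPKM + 0.1)) of the 19 tested histone genes with 95% intervals, coloured by class, filled where the adjusted p was at most 0.01. HIST1H2BK and HIST1H1C are the filled points, and 17 of 19 points lie above 0.

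Of the 19 log2 fold changes, 17 (89.5%) were above 0, compared with 50.0% of all tested genes, and their median was 0.44, compared with 0.00. Without HIST1H2BK and HIST1H1C, 15 of 17 were above 0 and the median was 0.33. Without HIST1H3H and HIST1H4I, which reached the limit only through the siMSI1 libraries, 15 of 17 were above 0 and the median was also 0.33. These values describe the members that passed the limit and were not tested. All siMSI1 libraries lay above all siC libraries in 9 members (47.4%), next to 21.4% of all tested genes, and below them in 0 members, next to 21.5%. HIST1H3H is 1 of the 9. Of the 34 members with reads below the limit, which entered no test, 21 had a higher and 13 a lower mean in siMSI1, on few reads: 17 of them had at most 10 reads over the 6 libraries. Neighbouring copies share sequence, and the members are not replicates of each other.

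Summed over all 72 members, and thus without a filter, histone RNA was higher in siMSI1. The sum was 74.9, 77.4 and 87.6 in siC against 110.6, 115.0 and 121.5 FPKM in siMSI1, a 1.45-fold higher mean (79.9 ± 6.71 and 115.7 ± 5.45 FPKM, SD, n = 3 each). As a share of the library, members took 57.5, 60.1 and 65.6 in siC against 82.6, 83.7 and 87.4 in siMSI1 of every 1000000 reads on genes (RPM). Without HIST1H2BK and HIST1H1C, the sum was 45.0, 43.6 and 49.2 in siC against 50.6, 53.9 and 58.1 FPKM in siMSI1, so that the groups still did not overlap while the ratio of the means was 1.18. The 53 undetected members together gave 5.48, 4.68 and 6.25 in siC against 7.09, 8.59 and 4.82 FPKM in siMSI1, with overlap.

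By class, the H1 sum went from 13.8 ± 2.19 to 25.0 ± 1.97 FPKM and the H2B sum from 28.9 ± 1.61 to 46.5 ± 0.822 FPKM (SD, n = 3 each), and each of these was carried by its gene that passed the test. The H4 sum was 3.51, 3.77 and 4.72 in siC against 6.10, 6.48 and 5.12 FPKM in siMSI1, without overlap, but overlapped once the HIST2H4A and HIST2H4B copies were left out. The H2A sum was 31.6 ± 1.88 and 35.7 ± 3.46 FPKM and overlapped, although in RPM, where long genes weigh more, the groups were apart at 24.7 to 26.2 and 29.3 to 31.1. In FPKM without HIST2H2AA3 and HIST2H2AA4, the H2A groups were also apart, at 18.3 to 20.7 in siC and 21.5 to 23.7 in siMSI1. The H3 sum was 1.68 ± 0.641 and 2.53 ± 1.14 FPKM and overlapped, and its log2 ratio of 0.59 was 0.15 without siMSI1 library 2. In RPM, the H3 groups did not overlap, with means of 1.79 ± 0.484 in siC and 3.34 ± 1.03 in siMSI1 (SD, n = 3 each). With 3 libraries per group, no exact two-sided permutation test can give a p below 0.1, so none is given for these sums.

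Genes of S phase moved the other way. All 10 genes listed for S phase were called lower, next to 5.83% of all tested genes, with a median log2 fold change of -0.57. This list, like the other gene lists, was chosen with earlier results of these data known. The subunits of the replicative helicase were at log2 fold changes of -0.53 (MCM2), -0.35 (MCM3), -0.65 (MCM4), -0.73 (MCM5), -0.61 (MCM6) and -0.36 (MCM7). The sliding clamp PCNA was at -0.62, the nucleotide synthesis genes RRM2 and TYMS at -0.45 and -0.36, and the transcription factor E2F1 at -0.89. E2F1, for example, stood at 39.6, 33.4 and 41.2 in siC against 19.7, 18.6 and 23.1 FPKM in siMSI1. The number called was 3 without siC library 1, 5 without siC library 2 or 3, 4 without siMSI1 library 1 or 2 and 10 without siMSI1 library 3, and MCM4, MCM6 and E2F1 were called in each of these fits. The part of these differences in the histone values was not tested.

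Regulators of histone gene transcription were in part lower. Of 9 listed genes, 3 were called lower and 0 higher, next to 5.83% and 5.15% of all tested genes. The 3 were CCNE1 (log2 fold change -0.92), CDK2 (-0.37), which together form the kinase that activates NPAT, and POU2F1 (-0.82), the octamer-binding factor. The coactivator NPAT itself stood at 4.76, 4.95 and 4.02 in siC against 4.42, 3.84 and 3.36 FPKM in siMSI1 (adjusted p = 0.220 in limma), and CASP8AP2, which encodes the processing and transcription factor FLASH, had a log2 fold change of -0.55 in limma (adjusted p = 0.0217 in limma). The count of 3 was 0 without siC library 1, 2 or 3 or siMSI1 library 2 and 1 without siMSI1 library 1.

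Of 15 genes for 3′ end processing and decay of histone mRNA, 2 were called lower and 0 higher. Among all tested genes, 5.83% were called lower and 5.15% higher. SLBP stood at 48.3 to 50.1 in siC against 39.4, 40.4 and 40.1 FPKM in siMSI1, a log2 fold change of -0.31 (SE 0.057, adjusted p = 0.00747 in limma), or 80.8% of the siC level. NCBP2, a subunit of the nuclear cap-binding complex, fell by 0.67 on the log2 scale. SLBP was called in 1 of the 6 fits that left out a library, that without siMSI1 library 3, in which the list had 4 calls. In the other 5, without siC library 1, 2 or 3 or siMSI1 library 1 or 2, NCBP2 was the 1 call left. The median of the list was 0.00, and the exonuclease gene ERI1 and the cleavage factor genes CPSF2 and CPSF3 had log2 fold changes of 0.05, 0.05 and 0.14.

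Histone chaperones, which carry histones to DNA, gave 6 lower and 0 higher of 19 tested genes, next to 5.83% and 5.15% of all tested genes. The 6 lower genes were CHAF1A (-0.70) and CHAF1B (-0.87) of the complex that deposits H3 and H4 at replication forks, its histone-binding partner RBBP4 (-0.47), the H3-H4 chaperone ASF1B (-0.59), the HIRA complex subunit UBN1 (-0.73) and the centromere chaperone HJURP (-0.37), as log2 fold changes. CHAF1A, CHAF1B and UBN1 were the 3 calls left without siC library 1, 2 or 3 or without siMSI1 library 1. CHAF1B stood at 7.03, 7.05 and 7.58 in siC against 3.86, 4.07 and 3.82 FPKM in siMSI1.

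**Figure D5:**
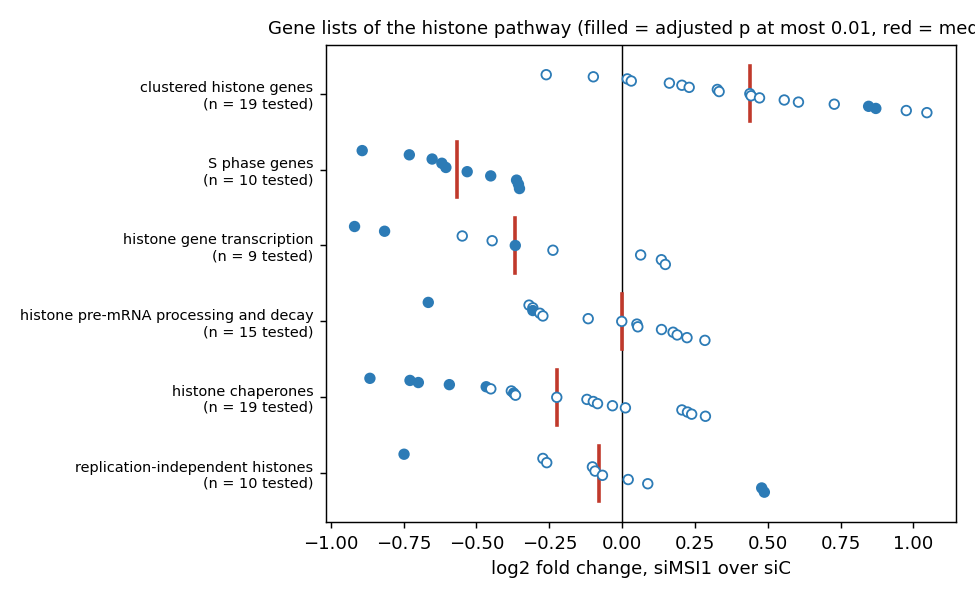
log2 fold change (siMSI1 over siC) of the tested clustered histone genes and of the listed genes for S phase, histone gene transcription, histone mRNA processing, chaperones and replication-independent histones, filled where the adjusted p was at most 0.01, with the median of each list as a red line. The median is 0.44 for the clustered histone genes and -0.57 for the S phase genes.

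Histones outside the clusters, listed as replication-independent, were set beside the family as genes of similar products. Their mRNAs are polyadenylated, but H2AFX is known to make hairpin mRNA as well. Of 10 tested, 2 were called higher and 1, H2AFX, lower, next to 5.15% and 5.83% of all tested genes. H1F0, the H1 variant of resting cells, stood at 6.98, 7.31 and 6.67 in siC against 10.0, 9.99 and 9.51 FPKM in siMSI1 (log2 fold change 0.49, adjusted p = 0.00294 in limma). H3F3B, which encodes H3.3, stood at 47.2, 46.6 and 48.2 in siC against 63.7, 72.6 and 62.2 FPKM in siMSI1 (log2 fold change 0.48, adjusted p = 0.00368 in limma), while H3F3A, which encodes the same protein, had a log2 fold change of 0.02. The 2 higher calls were 0 without siC library 1, siC library 3 or siMSI1 library 1, and 1 without siC library 2 or siMSI1 library 2.

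H2AFX, which encodes the damage-signalling variant H2AX, fell from 227.5, 218.7 and 252.6 FPKM in siC to 136.0, 125.9 and 154.7 FPKM in siMSI1 (log2 fold change -0.75, adjusted p = 0.00156 in limma), and the call held in all 17 alternatives. It is also among the 3 genes outside the family with a matching hairpin, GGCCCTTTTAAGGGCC, 49 bases after its stop codon, and is known to make both hairpin and polyadenylated mRNA. Its stem has the letters of the H4 genes above and its loop those of HIST1H2BK. Thus genes with this hairpin at their 3′ end were called in both directions, HIST1H2BK and HIST1H1C higher and H2AFX lower. H2AFX lay above every member of the clusters in FPKM.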

How the data were processed

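The authors clipped reads with Cutadapt 1.14, aligned them with HISAT2 2.1.0 to GRCh38 (hg38), handled alignments with SAMtools 1.5, counted reads per gene with featureCounts 1.5.3 and used edgeR 3.18.1 for their own comparison. The deposited table gives the FPKM of 58174 genes in each of 6 libraries, together with the authors' log2 fold changes, p-values and false discovery rates, which were not used. Use of strand and treatment of reads with several matches in counting are not given in the sources used here. Whole reads were recovered from FPKM and gene length (100% whole within 0.001).

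The 15069 genes reaching a mean of 0.5 FPKM were tested on the log2(FPKM + 0.1) scale with limma 3.58.1 in R 4.3.3 (lmFit, eBayes with trend and robust), comparing siMSI1 with siC and using no block, followed by Benjamini-Hochberg adjustment with a threshold of 0.01 and 95% intervals. On simulated data, 31.7% of genes changed by 0.5, 77.3% of those changed by 1 and 94.2% of those changed by 2 (log2) were called, in 15078 genes. The simulation gave every gene the same variation between libraries beyond counting error and drew changed genes from all levels above the filter. These rates are therefore not those of members that rest on few reads. Within each group, no libraries were duplicates of each other, and pairs across the groups were not checked. Sequences were read from GENCODE 44, the genome of the same build and RefSeq, with Python 3.11.15.

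Genes named with values are all called members, all called genes of the lists, the 2 most abundant members of each class, the 5 members known to make polyadenylated mRNA, 2 members on each side of the detection limit, SLBP, NPAT and CASP8AP2. Further members and listed genes were named after their values were seen. The members and the gene lists were chosen with earlier results of these data known. Alternatives covered the added value, the filter, scaling, moderation, threshold, a replicate block, voom on recovered reads and each library left out.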

Additional observations from a re-analysis of the deposited data

How the results depend on the processing

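Read numbers limit most members: of the 19 detected, 4 averaged under 10 reads in a library. The number of members called higher was 1 instead of 2 without the filter on low genes and under plain moderation (no trend, no robust weights), since HIST1H1C was lost, and 2 or 3 under the other alternatives. No member was called lower under any alternative. Leaving out each library in turn kept both calls (2 to 2) and moved the median log2 fold change between 0.33 and 0.46, from 0.44, and it was 0.25 with an added value of 1 and 0.27 over members of at least 1 FPKM. The H2B log2 ratio of summed levels was 0.45 in RPM instead of 0.69, and that of all members was 0.24 instead of 0.53 without HIST1H2BK and HIST1H1C, an alternative chosen after seeing the data, as was leaving out libraries for the sums.

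S phase genes called lower numbered 10 and came to 5 without the filter, 6 with median centring, 4 with plain moderation, and 3 to 10 with a library left out. For histone gene transcription, 3 calls became 0 without the filter, 1 with plain moderation, 5 in voom with the replicate block, and 0 to 2 with a library left out. For processing and decay, 2 lower calls became 1 without the filter, with median centring or plain moderation, 4 with the replicate block in limma or in voom, and 1 to 4 with a library left out, and higher calls were 1 at a threshold of 0.05 and in voom and 2 in voom with the block. For chaperones, 6 lower calls became 3 without the filter or with plain moderation, 10 in voom with the block, and 3 to 6 with a library left out, with 1 higher call in voom with the block. For replication-independent histones, 1 lower call became 3 at a threshold of 0.05, 2 in voom and 3 in voom with the block, and 2 higher calls became 1 without the filter or with plain moderation and 0 to 2 with a library left out. Over all genes, 879 lower and 776 higher calls became 280 and 248 without siC library 1.

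Whether the replicate numbers pair the libraries was not settled. Deviations of same-numbered libraries correlated at -0.066, 0.078 and 0.083, and those of other pairs at -0.144 to 0.070. With the replicate block, 2 members were called higher and 0 lower, with a median log2 fold change of 0.44 (0.35 in voom with the block), while calls over all genes rose to 1173 lower and 1077 higher. The siC libraries 2 and 3 correlated best with the siMSI1 library of their own number, and siC library 1 with siMSI1 library 3 (0.059).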

Other observations

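The table also holds 15 pseudogenes with symbols of the same family, which entered none of the comparisons above. Of these, 8 had reads and 3 had a mean of at least 0.5 FPKM, with 334 reads in all. The largest number fell on HIST2H2BC, at 3.22, 5.05 and 2.52 FPKM in siC and 3.39, 3.42 and 5.52 FPKM in siMSI1, where the groups overlapped.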
